A study of Mus musculus with 11 samples.

Results

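The genes described here encode the proteins of the cytosolic ribosome. They were taken by name from the table of counts per gene, as every row named Rpl or Rps followed by a digit together with Rpsa, Rplp0, Rplp1 and Rplp2, leaving out names with -ps and the Rps6k kinases. The rule took 91 of 50600 rows. Of these, 77 are the canonical genes, 31 of the small subunit and 46 of the large subunit. The other 14 are paralogs and retrogenes, such as Rpl3l and Rpl22l1, and Rps19bp1, which carries the prefix but encodes a regulator of the deacetylase Sirt1 that binds Rps19. The canonical genes lie on 19 different chromosomes, with 14 of them on chromosome 7 and 4 on X.

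A ribosome holds 1 copy of nearly every one of these proteins, and the acidic stalk proteins Rplp1 and Rplp2 are present in more copies. The small subunit reads the mRNA and the large subunit joins amino acids, and together they set the capacity of a cell for protein synthesis. The mRNAs of these genes typically begin with a cytosine followed by a run of pyrimidines, the 5′ terminal oligopyrimidine (TOP) tract, through which mTOR and Larp1 control their translation and stability. Growth of cardiomyocytes under load is accompanied by ribosome production, and Rpl3l is a paralog of Rpl3 that is expressed in heart and skeletal muscle.

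The hearts came from C57BL/6 mice operated on at postnatal day 0 (P0). Pulmonary artery banding (PAB) narrows the outflow of the right ventricle and so raises its pressure load, and sham animals had the operation without the band. RNA was sequenced at P3 from 3 sham and 3 PAB samples and at P7 from 3 sham and 2 PAB samples. The study's methods name ventricles as the source of RNA and do not say that the loaded right ventricle was taken apart from the left, and the labels state neither sex nor whether pups were pooled.

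The 11 libraries held between 19274045 and 26820228 counts. Levels are given as CPM, the counts scaled to a common library size after TMM normalization, and 3 counts correspond to 0.114 to 0.148 CPM, depending on the library. Nppa, the atrial natriuretic peptide gene induced by load, was at 1786 and 1265 CPM in the P7 PAB libraries and between 56.3 and 91.6 CPM in the P7 sham libraries. At P3 it was between 256 and 406 CPM with PAB and between 64.5 and 171 CPM in sham. The 10 ventricular cardiomyocyte markers summed to between 58810 and 73382 CPM in every library, and the 7 markers of T cells and thymus to at most 2.76 CPM. All 3 P7 sham libraries and P3 sham replicate 1 had high Xist (630 to 1061 CPM) and the other 7 libraries had Ddx3y of the Y chromosome, so the operation and the sex chromosome class cannot be told apart at P7.

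The start sites were examined because they carry the TOP tract. RefSeq promoter sequences (GRCm38.p6) were matched for 67 of the 91 genes, 57 of them canonical. A tract was counted on the coding strand where a C followed by at least 4 pyrimidines began within 5 bases of the annotated start. The following 7 windows run from 15 bases before to 15 bases after the start of transcription, with the tract in capitals, and show the 3 canonical genes with the largest P7 changes, the 2 with the smallest, and the paralogs Rpl22l1 and Rpl3l.

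Rpl39: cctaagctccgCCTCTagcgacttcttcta
Rpl38: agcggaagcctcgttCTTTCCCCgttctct
Rpl41: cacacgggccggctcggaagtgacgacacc
Rplp2: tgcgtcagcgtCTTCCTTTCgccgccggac
Rps6: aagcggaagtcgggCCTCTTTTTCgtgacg
Rpl22l1: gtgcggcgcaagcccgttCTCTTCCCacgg
Rpl3l: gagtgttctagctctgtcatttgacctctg

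These windows lie at chrX:37085208-37085237 on the minus strand (Rpl39), chr11:114668565-114668594 on the plus strand (Rpl38), chr10:128549154-128549183 on the minus strand (Rpl41), chr7:141447636-141447665 on the plus strand (Rplp2), chr4:86857353-86857382 on the minus strand (Rps6), chr3:28805493-28805522 on the plus strand (Rpl22l1) and chr17:24727811-24727840 on the plus strand (Rpl3l). Tracts are visible at the starts of Rpl39, Rpl38, Rplp2, Rps6 and Rpl22l1, and the windows of Rpl41 and Rpl3l held none. A tract was found in 26 of the 57 canonical promoters (45.6%), in 3 of the 10 other promoters matched, and in 18.5% of the 27025 genes with a promoter sequence.

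Of 3 motifs searched on both strands from 250 bases before to 50 bases after the start, CCGGAAG, the core bound by ETS factors such as Gabpa, was in 23 of the 57 canonical promoters (40.4%) and in 9.12% of all promoters. AAGATGG, the core of Yy1 motifs, was in 8 of the 57 against 6.48% of all promoters, and GGGCGG, the GC box of Sp1, in 34 of the 57 (59.6%) against 35.9%. In 3 genes the ETS core stood on the coding strand within 15 bases downstream of the start, and their windows of the same kind are shown with this motif in capitals.

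Rpl11: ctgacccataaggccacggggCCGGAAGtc
Rpl26: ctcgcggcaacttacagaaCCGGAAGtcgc
Rpl31: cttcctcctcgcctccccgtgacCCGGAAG

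The windows are at chr4:136053379-136053408 on the minus strand for Rpl11, chr11:68901551-68901580 on the plus strand for Rpl26 and chr1:39367836-39367865 on the plus strand for Rpl31. A match describes letters in the sequence and is not evidence of a bound factor.

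At the level of the whole group, ribosomal protein mRNA was more abundant in P7 PAB than in any other group. The 91 genes summed to 30290 and 27627 CPM in the 2 P7 PAB libraries. They summed to 19243, 16469 and 16312 CPM in P7 sham, to 20522, 20833 and 20342 CPM in P3 PAB and to 19013, 20367 and 17718 CPM in P3 sham. Both P7 PAB libraries lay above the other 9, and the P3 PAB and P3 sham libraries overlapped. The ratio of mean sums was 1.67 ± 0.19 for P7 PAB over P7 sham and 1.08 ± 0.08 for P3 PAB over P3 sham (SD propagated from the libraries). No test was made of the sums, since 3 against 2 libraries cannot reach p < 0.05 by permutation. As a share of all raw counts the group means were 2.62% ± 0.09 for the P7 PAB libraries (SD, n = 2), 1.55% ± 0.13 for P7 sham, 2.21% ± 0.05 for P3 PAB and 2.11% ± 0.13 for P3 sham (SD, n = 3 each). In whole-tissue RNA, a change in the cell types present and a change of RNA per cell cannot be told apart.

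**Figure D1:**
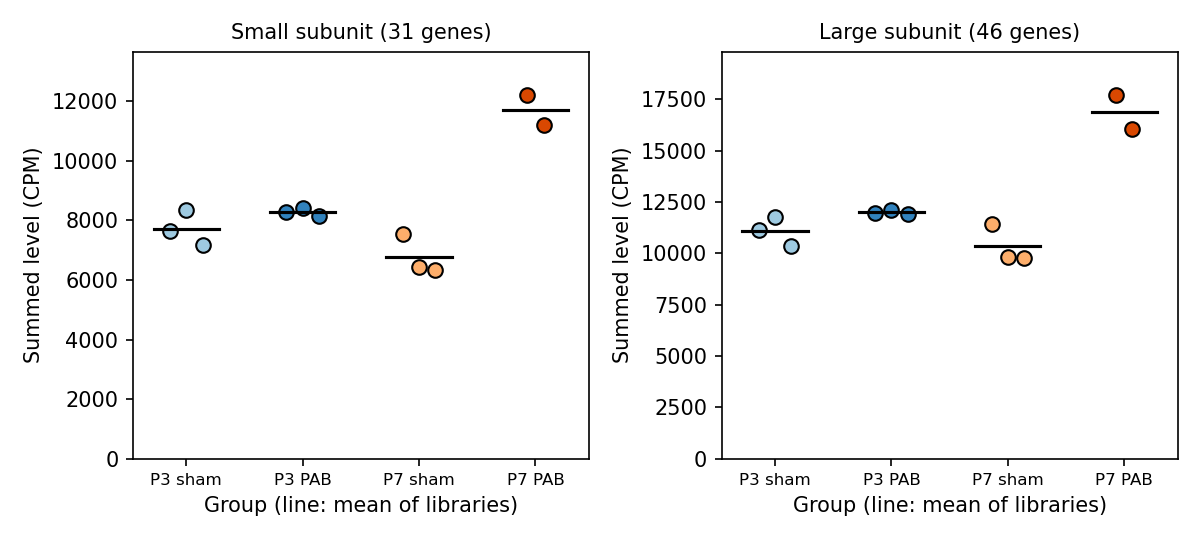
Summed level in CPM (vertical axes, from 0) of the 31 small subunit genes (left) and the 46 large subunit genes (right) in the 4 groups; each point is a library and each line a group mean. In both panels the 2 P7 PAB libraries lie above the other 9, and the 3 P7 sham libraries have the lowest mean.

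The subunits moved nearly in step. The small subunit genes summed to 12213 and 11224 CPM in P7 PAB and to between 6345 and 7543 CPM in P7 sham, and the large subunit genes to 17705 and 16049 CPM against 9752 to 11447 CPM. The ratio of small to large subunit counts was 0.655 ± 0.004 in P7 sham, and it was 0.695 ± 0.007 in P7 PAB, 0.697 ± 0.010 in P3 sham and 0.691 ± 0.007 in P3 PAB. The ratio was thus lower in each P7 sham library (0.651 to 0.659) than in each of the other 8 (0.682 to 0.709).

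Per kb of exonic length, the merged exons of all annotated transcripts, the mean levels over the 11 libraries were highest for Rplp1 (809 CPM per kb), Rplp0 (463) and Rps3a1 (435) and lowest among canonical genes for Rps19 (32.5), Rps15a (33.8) and Rpl22 (36.4). Rplp1 and Rplp0 belong to the stalk that recruits elongation factors. The order depended on which length was used. Per kb of the mRNA, taken as 1 coding transcript per gene, Rplp1 (809), Rps2 (692) and Rps29 (627) were highest. Rps20 (50.1), Rpl37 (146) and Rps24 (162) were lowest, and Rps19, Rps15a and Rpl22 were at 240, 331 and 223 CPM per kb. The transcript taken for Rps20 has 3706 bases, the longest among canonical genes. Rps15a has an exonic length of 6270 bases and an mRNA length of 640, and it was at 294 and 282 CPM in P7 PAB and at 160, 149 and 136 CPM in P7 sham. These levels were not compared by test.

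At P3 no gene of the group was called between banded and sham hearts. None of the 89 tested genes was called in either direction by edgeR's quasi-likelihood test at a 1.5-fold change with a Benjamini-Hochberg adjusted p up to 0.05, where 0.108% of all 15808 tested genes were called higher and 0.019% lower. The unadjusted p was under 0.05 for 5 of the 89 genes and for 8.39% of all tested genes. DESeq2 also called none, with 1 member higher on its adjusted p alone. Rps4l was at 0.35 ± 0.07 (edgeR adjusted p = 0.085), with every PAB library above every sham library. All 77 canonical genes had a log2 fold change above 0, between 0.00 and 0.20 with a median of 0.11, and the median over all tested genes was -0.0010. The genes share libraries and scaling, so that their common sign is not 77 separate observations.

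The largest P3 values among canonical genes were those of Rpsa, Rpl35 and Rps26. Rpsa, the laminin receptor that is also a small subunit protein, was at 663, 680 and 643 CPM in P3 PAB and at 594, 627 and 503 CPM in P3 sham. Its log2 fold change was 0.20 ± 0.11 (SE, edgeR adjusted p = 0.69), and the PAB libraries lay above the sham libraries. Rpl22, Rpl39 and Rps9 had the smallest values, at 0.00 ± 0.07, 0.00 ± 0.11 and 0.04 ± 0.07. In 21 of the 77 canonical genes every P3 PAB library lay above every P3 sham library, against 8.65% of all tested genes, and in none below, against 8.02%.

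At P7 the banded hearts had higher levels of most ribosomal protein mRNAs. The test called 60 of the 89 genes higher and 1 lower, where 9.63% of all tested genes were called higher and 8.59% lower. The count depended on whether gene length was corrected for. With the trend of each library with exonic length removed, 33 were called higher and 3 lower, where 6.22% and 7.05% of all tested genes were. With the trend with mRNA length removed, added after seeing the data, 13 were called higher and 4 lower, where 5.05% and 6.69% were. Among the 77 canonical genes 58 were called higher without a correction, 26 of 31 in the small and 32 of 46 in the large subunit, and none lower. Their log2 fold changes ran from 0.01 to 1.54 with a median of 0.80, which was 0.53 and 0.29 in those fits, and the median over all tested genes was -0.0037. Without the fold change threshold 75 of the 77 passed, the exceptions being Rplp2 and Rps6, where 22.8% of all tested genes passed as higher. In 75 of the 77 both P7 PAB libraries lay above all 3 P7 sham libraries, against 30.8% of all tested genes.

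The spread among the canonical genes was also wider at P7. The SD of the log2 fold change between genes was 0.27 at P7 and 0.04 at P3, and the standard error of a single gene's change was near 0.1 at both ages. The differences between single genes were not tested.

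**Figure D2:**
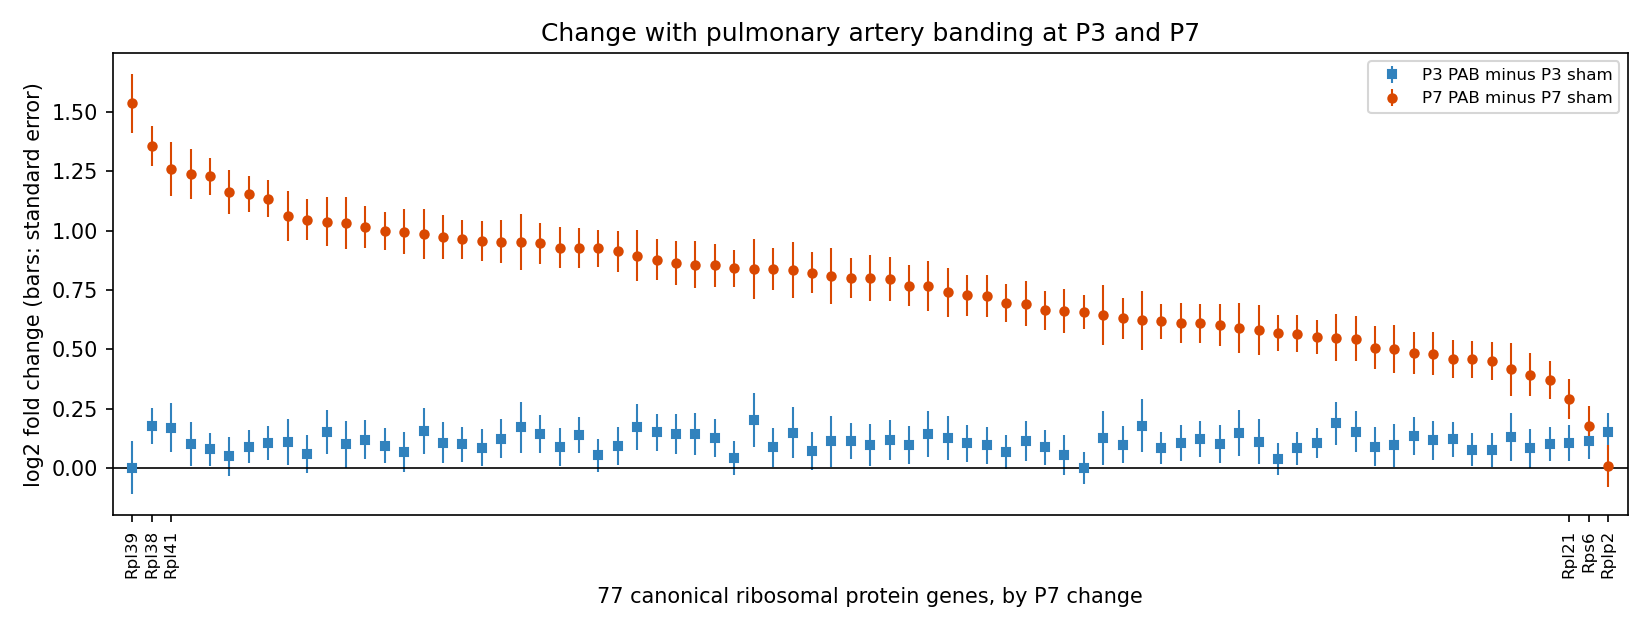
Log2 fold change with PAB (vertical axis, bars are standard errors) of each of the 77 canonical genes (horizontal axis, ordered by the P7 change, with 6 genes labelled), at P3 (squares) and P7 (circles). The P7 values fall from 1.54 for Rpl39 to 0.01 for Rplp2, and the P3 values lie between 0.00 and 0.20 throughout.

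Rpl39, Rpl38 and Rpl41, 3 of the smallest proteins of the large subunit, had the largest changes among canonical genes. Rpl39, which lines the exit tunnel of the nascent chain, was at 235 and 239 CPM in P7 PAB and at 90.2, 83.4 and 71.7 CPM in P7 sham. At P3 it was at 126, 110 and 88.3 CPM with PAB and at 97.5, 118 and 108 CPM in sham. The P7 groups were far apart and the P3 groups overlapped. Its P7 log2 fold change was 1.54 ± 0.12 (edgeR adjusted p = 7.6e-07).

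Rpl38, a protein known for its role in the translation of Hox mRNAs, was at 181 and 156 CPM in P7 PAB and at 71.2, 63.2 and 63.0 CPM in P7 sham, a log2 fold change of 1.36 ± 0.08 (edgeR adjusted p = 9.4e-08). Rpl41, which encodes a peptide that bridges the subunits, was at 541 and 470 CPM against 248, 180 and 205 CPM, a log2 fold change of 1.26 ± 0.12. No P7 sham library reached the level of a P7 PAB library for either gene.

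In the small subunit the largest P7 changes were those of Rps21, Rps14 and Rps27, of which the first was at 157 and 137 CPM in PAB and at 71.1, 56.6 and 59.5 CPM in sham (log2 fold change 1.24 ± 0.10). Rps14, a protein of the platform near the mRNA exit, was at 367 and 377 CPM against 177, 163 and 158 CPM, with a log2 fold change of 1.16 ± 0.09. Rps27, a zinc finger protein, was at 219 and 232 CPM against 111, 99.0 and 93.5 CPM, with a log2 fold change of 1.16 ± 0.08. For all 3 genes both P7 PAB libraries were above each of the other 9.

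Rplp0, Rplp1 and Rplp2 form the stalk of the large subunit and behaved unequally. Rplp0, the base of the stalk and a common reference gene for quantitative PCR, was at 1053 and 917 CPM in P7 PAB and at 654, 561 and 573 CPM in P7 sham (0.73 ± 0.09 on the log2 scale, edgeR adjusted p = 1.5e-05). Rplp1 was at 558 and 507 CPM against 303, 224 and 251 CPM (1.04 ± 0.10). Rplp2, the partner of Rplp1, was at 184 and 187 CPM against 205, 172 and 177 CPM, so that the groups overlapped, with a log2 fold change of 0.01 ± 0.09 (edgeR adjusted p = 0.95).

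Rps6, the protein phosphorylated by the S6 kinases downstream of mTOR, likewise did not pass. It was at 363 and 331 CPM in P7 PAB and at 337, 297 and 287 CPM in P7 sham, with a log2 fold change of 0.18 ± 0.08 (edgeR adjusted p = 0.099). Rpl21 followed at 0.29 ± 0.08, which passed the p threshold (edgeR adjusted p = 0.011) but not the fold change. In all, 17 canonical genes passed on p and not on fold change, Rpl14 (0.39 ± 0.09), Rps2 (0.58 ± 0.10) and Rps9 (0.57 ± 0.08) among them.

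**Figure D3:**
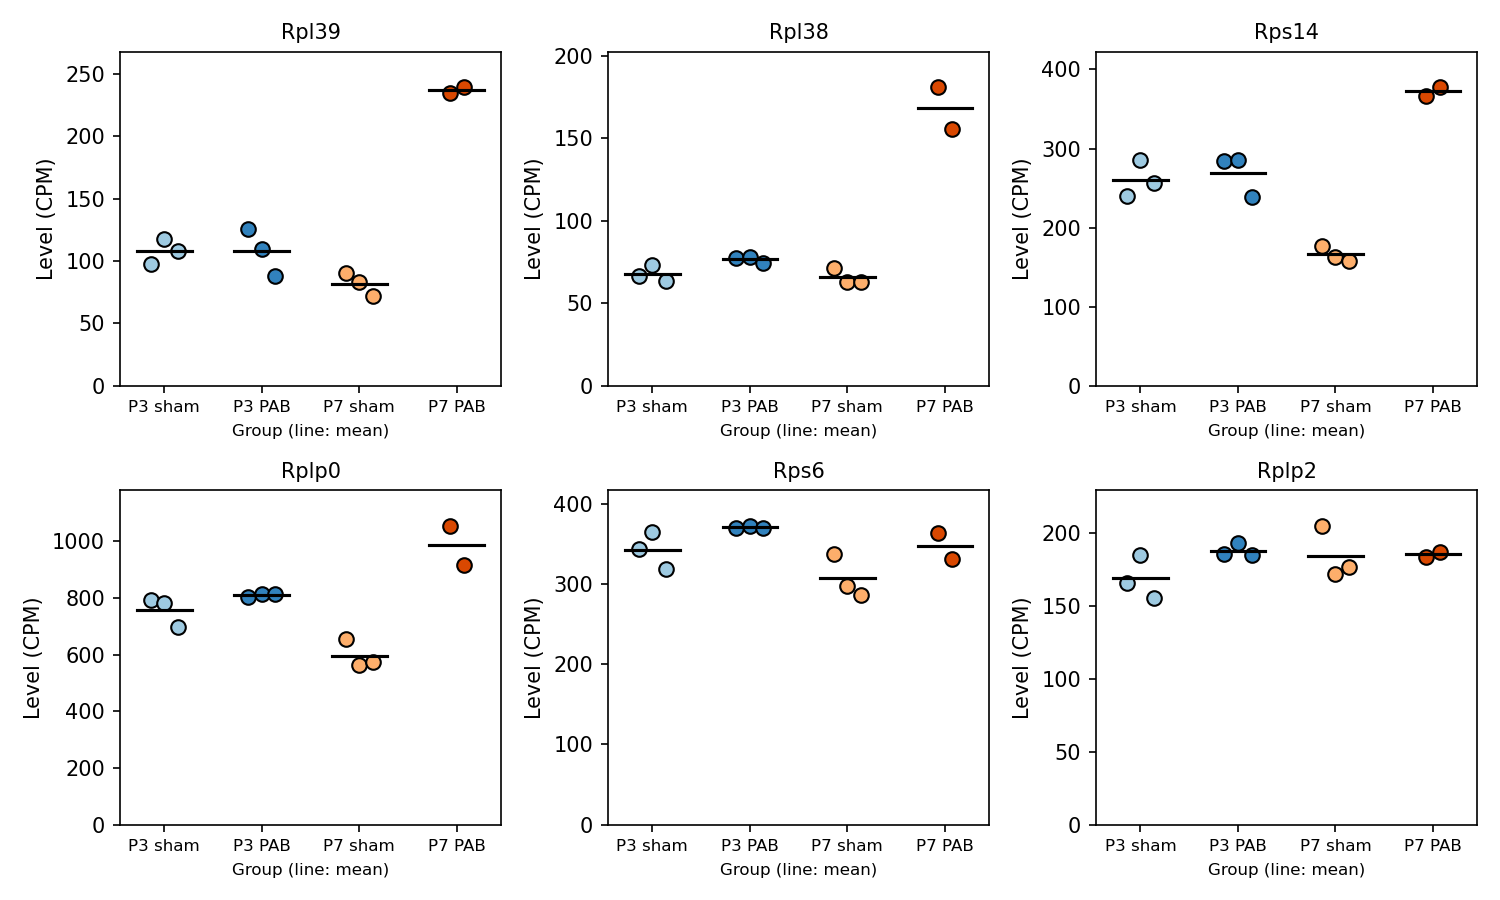
Level in CPM (vertical axes, from 0) of Rpl39, Rpl38, Rps14, Rplp0, Rps6 and Rplp2 in the 4 groups; each point is a library and each line a group mean. The P7 PAB points stand above the P7 sham points in the first 4 panels, and the P7 groups overlap in those of Rps6 and Rplp2.

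Several further members are described by their place or role and were picked after their values were seen. Rpl5 and Rpl11 bind the 5S RNA and, when free of the ribosome, the p53 regulator Mdm2. Rpl5 was at 540 and 538 CPM in P7 PAB and at 384, 365 and 354 CPM in P7 sham, a log2 fold change of 0.55 ± 0.07 that passed on p (edgeR adjusted p = 2.5e-05) and not on fold change. Rpl11 was at 409 and 374 CPM against 241, 202 and 203 CPM and was called higher (0.86 ± 0.09). Both genes had separate P7 groups.

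Rpl4 and Rpl17 line the exit tunnel as Rpl39 does and had smaller values. Rpl4 was at 712 and 624 CPM in P7 PAB and at 552, 507 and 491 CPM in P7 sham (0.37 ± 0.08), and Rpl17 at 339 and 340 CPM against 275, 235 and 232 CPM (0.46 ± 0.08). Neither was called, although the groups did not overlap.

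Rps19, a small subunit protein whose mutation causes Diamond-Blackfan anaemia, was called higher at P7. It was at 257 and 235 CPM against 132, 110 and 112 CPM in sham (1.06 ± 0.11). Rps24 and Rps26, linked to the same disease, had values of 0.45 ± 0.08 and 0.62 ± 0.12, of which that of Rps26 was called. With the mRNA length trend removed Rps19, Rps24 and Rps26 were at 0.54, 0.22 and 0.12, all under the fold change threshold. Rps27a, made as a fusion with ubiquitin, was at 369 and 376 CPM against 193, 181 and 166 CPM, with a log2 fold change of 1.05 ± 0.09.

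The 4 X-linked canonical genes, Rpl10, Rpl36a, Rpl39 and Rps4x, were all called higher at P7, with log2 fold changes from 0.84 to 1.54 and a median of 0.94. With the mRNA length trend removed Rpl39 alone was past the fold change threshold, and Rpl10, Rpl36a and Rps4x were at 0.47, 0.37 and 0.45. Without that correction the 73 others had a median of 0.77 and 54 calls, where 9.63% of all tested genes were called higher. Rps4x was at 632 and 572 CPM in P7 PAB and at 362, 335 and 311 CPM in P7 sham, and Rpl10, which completes the large subunit at its last maturation step, was at 574 and 506 against 300, 283 and 269 CPM. When the class of each library by Xist and Ddx3y entered the fit, 55 of the 77 canonical genes were called higher at P7 where 7.67% of all genes were. In that fit the class is informed within a group by P3 sham alone.

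The direct test of whether the PAB effect differed between P7 and P3 called 71 of the 89 genes as more positive at P7 and none as less, where 13.3% of all tested genes were called more positive and 12.6% less (edgeR interaction term, adjusted p of at most 0.05). Of the canonical genes, 69 of 77 passed, with a median difference of 0.68 on the log2 scale. With the trend of each library with mRNA length removed, 35 genes were more positive and 3 less, where 7.78% and 7.32% of all tested genes were, and the canonical median was 0.24. The largest differences among canonical genes were those of Rpl39 (1.53 ± 0.17, adjusted p = 6.1e-05) and Rpl38 (1.18 ± 0.11, adjusted p = 3e-05). Rplp2 (-0.15 ± 0.12, adjusted p = 0.4), Rps6 (0.06 ± 0.11, adjusted p = 0.73) and Rpl21 (0.19 ± 0.11, adjusted p = 0.25) did not pass.

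Between P3 and P7 the sham hearts showed small changes in both directions. The test called 3 members higher, where 5.62% of all tested genes were, and 4 lower, where 5.73% were. Of the canonical genes 23 of 77 had values above 0, with a median of -0.09. These values rested on single libraries, with 13 values above 0 and a median of -0.16 without P7 sham replicate 1, 27 and -0.05 without P7 sham replicate 2, 32 and -0.04 without P7 sham replicate 3, and 34 and -0.04 without P3 sham replicate 2. Calls as lower numbered 6 without P7 sham replicate 1 and 2 without P3 sham replicate 2. Rps21 fell from 96.1, 116 and 97.7 CPM at P3 to 71.1, 56.6 and 59.5 CPM at P7, a log2 fold change of -0.73 ± 0.09 (edgeR adjusted p = 5.3e-05). Rplp1 fell from 406, 435 and 389 CPM to 303, 224 and 251 CPM (-0.66 ± 0.09), and Rps14 from 240, 285 and 257 CPM to 177, 163 and 158 CPM (-0.65 ± 0.08). The ages did not overlap for these 3 genes. Among canonical genes Rps24, Rpl27a and Rpl23 had the largest positive values, at 0.45 ± 0.07, 0.42 ± 0.09 and 0.37 ± 0.07, which were under the fold change threshold although their adjusted p were 0.00033, 0.0021 and 0.00097 in edgeR.

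In the banded hearts most values over the same interval were above 0, with a size that depended on the correction for length. The test called 40 members higher and none lower, where 9.5% of all tested genes were called higher and 8.2% lower, and 36 of these were canonical. The canonical median was 0.54, and 75 of the 77 values were above 0. With the trend of each library with exonic length removed, 16 members were called higher, where 6.18% of all tested genes were, with a canonical median of 0.32. With the mRNA length trend removed, 3 were called higher and 1 lower, where 5.19% and 6.59% of all tested genes were, the canonical median was 0.034, and 44 of the 77 values were above 0. Rps29, a zinc-binding protein of the small subunit, rose from 174, 197 and 192 CPM to 497 and 427 CPM, a log2 fold change of 1.30 ± 0.11 (edgeR adjusted p = 1e-06). In sham the same gene was at 172, 191 and 161 CPM at P3 and at 263, 211 and 204 CPM at P7 (0.37 ± 0.10). Rps6 (-0.09 ± 0.08), Rplp2 (-0.02 ± 0.09) and Rpl14 (0.04 ± 0.09) had the smallest values among canonical genes and were not called.

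The calls between ages rest on the scaling. The mitochondrially encoded genes took 11.4% to 13.1% of counts at P3 and 18.0% to 22.2% at P7, and scaling by the total count instead of TMM shifted the median of all tested genes to -0.31 in sham and -0.25 in PAB. With that scaling 23 members were called lower in sham, where 18.2% of all tested genes were, and 12 higher in PAB, where 4.08% were.

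The P7 change over all tested genes also followed gene length, and ribosomal protein genes are short. Their exonic length had a median of 1781 bases, against 4173 over all tested genes. Among the other genes of 1000 to under 2000 exonic bases the median P7 log2 fold change was 0.32 and 23.7% of 1880 were called higher, against 0.71 and 68.8% of 32 canonical genes. From 2000 to under 4000 bases the medians were 0.14 and 0.80, with 11.2% of 4783 other genes and 75.9% of 29 canonical genes called higher. At 4000 bases and over they were -0.15 and 0.93, with 3.41% and 83.3% of 6 canonical genes called higher. Among the 77 canonical genes themselves the Spearman correlation of the P7 change with exonic length was -0.03.

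The length of the mRNA was used in addition, a choice made after seeing the data. The canonical transcripts used had a median length of 729 nucleotides, against 2741 over all tested genes. Log2 level changed by -0.20 and -0.18 per doubling of mRNA length in the P7 PAB libraries and by between -0.03 and 0.08 in the other 9, relative to the mean of all libraries. Short genes outside the group were also often called higher at P7. Those under 600 nucleotides had a median log2 fold change of 0.46 and 32.2% were called higher, against a median of 0.84 and 92.9% of the 28 canonical genes in this class. From 600 to under 1000 nucleotides the medians were 0.44 and 0.73, with 32.4% of 991 other genes and 68.8% of 32 canonical genes called higher.

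From 1000 to under 2000 nucleotides the other genes had a median of 0.25 and the 15 canonical genes one of 0.62. On this length, longer transcripts among the 77 canonical genes had smaller changes, with a Spearman correlation of -0.42 that was not seen with exonic length. It is a description across genes that share libraries. At P3 that correlation was 0.01.

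**Figure D4:**
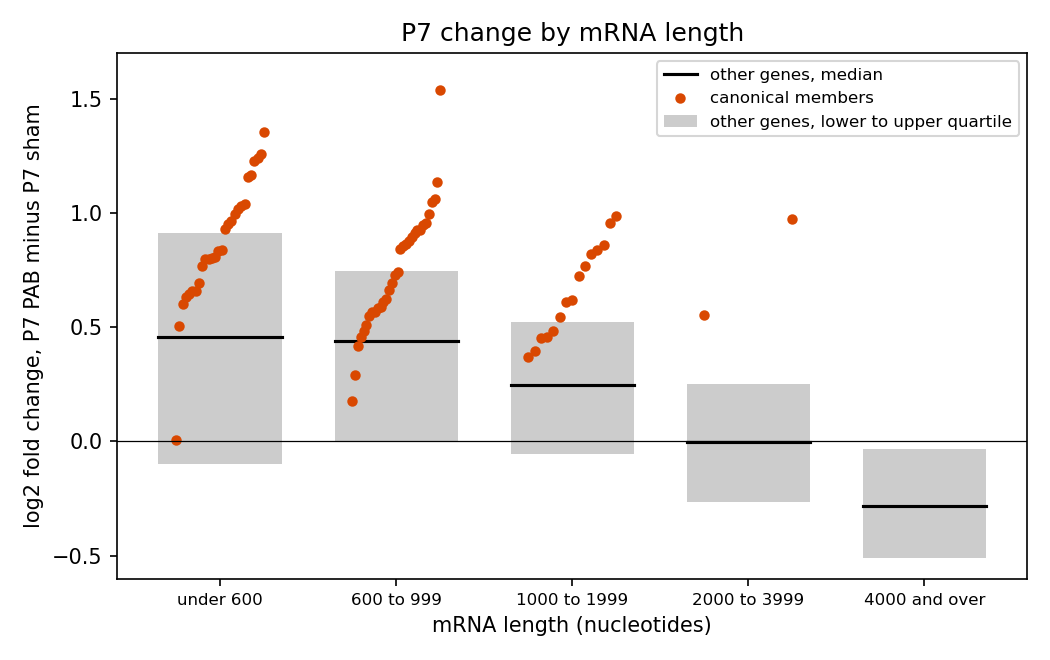
Log2 fold change of P7 PAB against P7 sham (vertical axis) by class of mRNA length (horizontal axis). Grey bars run from the lower to the upper quartile of the other genes, black lines are their medians, and each circle is a canonical gene, spread sideways by rank; the medians of the other genes fall from 0.46 to -0.28, and most circles lie above the line of their class.

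When the trend of each library with exonic length was removed, 33 members were called higher at P7 and 3 lower, where 6.22% and 7.05% of all tested genes were, and the canonical median was 0.53. When the trend with mRNA length was removed, an alternative added after seeing the data, 13 members were called higher and 4 lower, where 5.05% and 6.69% of all tested genes were, with a canonical median of 0.29 and 71 of 77 values above 0. In that fit Rpl39 was at 1.01, Rpl38 at 0.66, Rpl41 at 0.64 and Rps20 at 1.06. The value of Rps20 rests on an mRNA length of 3706 nucleotides, the longest among canonical genes, and was 0.97 without the correction. Rplp2 was at -0.63 (edgeR adjusted p = 1.1e-05) and Rps6 at -0.25. Of the P7 calls, 14 were shared between this fit and the one without the correction. What produced the trend with length was not tested.

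Many of these genes have processed pseudogenes, which can take or lend reads. Of all windows of 100 bases in a canonical mRNA, a median of 45.0% occurred identically in a GENCODE transcript of another gene, 34 of the 77 genes had at least 50% of windows copied, and 5 had none. The genome sequence itself was not searched. The 34 genes with more copies had a median P7 log2 fold change of 0.80 and 25 calls, and the 43 others one of 0.81 and 33 calls, where 9.63% of all tested genes were called higher. Rps21, Rpl22, Rpl32 and Rps3 had no copied window and log2 fold changes of 1.24, 0.66, 0.60 and 0.82. The 271 rows with -ps names together held 47.3 to 96.5 CPM.

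The 26 canonical genes with a tract at the annotated start had a median P7 log2 fold change of 0.71, from 0.01 to 1.54, and 14 were called higher, where 9.63% of all tested genes were. The 31 without one had a median of 0.82, from 0.37 to 1.26, and 27 were called. Only the first start listed per gene was used, and 10 of the 67 matched genes had more than 1. A gene without a tract there may still make an mRNA that begins with one. Both Rplp2 and Rps6, which did not pass, and Rpl39 and Rpl38, which had the largest changes, carry a tract in the windows shown, while Rpl41, the third in order, does not, so that genes with a tract stood at both ends of the order.

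Among the paralogs, Rpl3l moved opposite to Rpl3. Rpl3l was at 7.56 and 8.13 CPM in P7 PAB and at 14.6, 11.8 and 12.8 CPM in P7 sham, and at P3 at 5.31, 5.11 and 6.09 CPM with PAB and 6.52, 7.23 and 6.90 CPM in sham. It was lower in PAB than in sham in each library at both ages, and higher in every P7 library than in the P3 libraries of the same operation. Its log2 fold change was -0.74 ± 0.12 at P7 (edgeR adjusted p = 0.00021) and -0.32 ± 0.12 at P3 (adjusted p = 0.42), and the difference between these did not pass (-0.41 ± 0.17, edgeR adjusted p = 0.083). From P3 to P7 it rose by 0.92 ± 0.11 in sham (edgeR adjusted p = 2.1e-05) and by 0.51 ± 0.13 in PAB.

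Rpl3, its ubiquitous partner, was at 646 and 584 CPM in P7 PAB and at 440, 386 and 382 CPM in P7 sham (0.61 ± 0.08). Counts of Rpl3l were 3.31%, 3.05% and 3.36% of those of Rpl3 in P7 sham and 1.17% and 1.39% in P7 PAB. At P3 they were 1.20%, 1.30% and 1.38% in sham and 0.908%, 0.876% and 1.10% in PAB. For this ratio the P7 PAB libraries were close to the range of the P3 libraries and below every P7 sham library. No window of the Rpl3l mRNA was copied in another gene.

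Rpl22l1, the paralog of Rpl22 that can replace it in the large subunit, had the largest P7 increase of all tested members. It was at 65.0 and 59.1 CPM in P7 PAB and at 17.1, 17.1 and 13.1 CPM in P7 sham, a log2 fold change of 1.98 ± 0.13 (edgeR adjusted p = 1.6e-07). At P3 it was at 31.1, 28.8 and 23.8 CPM with PAB and 21.7, 28.2 and 24.2 CPM in sham, and the groups overlapped (0.17 ± 0.12). In sham it fell from P3 to P7 by 0.66 ± 0.13 on the log2 scale, and in PAB it rose by 1.15 ± 0.13. The difference between the PAB effects at the 2 ages was 1.81 ± 0.18 (edgeR adjusted p = 3.1e-05), and with the mRNA length trend removed the P7 change was 1.42.

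Rpl22 itself was at 150 and 155 CPM in P7 PAB and at 101, 100 and 89.0 CPM in P7 sham (0.66 ± 0.07). Rpl22l1 counts were therefore 43.5% and 38.1% of Rpl22 counts in P7 PAB, 17.0%, 17.0% and 14.7% in P7 sham, and between 24.1% and 32.9% at P3. The groups at P7 were separate from each other and from both P3 groups. Of the Rpl22l1 windows, 50.8% were copied in pseudogenes, and of the Rpl22 windows none.

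Rps27l, a p53-inducible paralog of Rps27, was at 78.9 and 83.3 CPM in P7 PAB and at 42.4, 37.8 and 32.5 CPM in P7 sham (1.11 ± 0.09, edgeR adjusted p = 9.8e-07). It kept pace with Rps27, with counts of 36.0% and 35.9% of those of Rps27 in P7 PAB and 34.7% to 38.2% in P7 sham. The P7 groups overlapped in this ratio. At P3 they did not, with 41.0%, 38.3% and 37.3% in PAB and 33.9%, 34.6% and 35.1% in sham.

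Rpl36al, a retrogene copy of the X-linked Rpl36a, and Rps4l, a transcribed copy of the X-linked Rps4x, did not reach the fold change threshold. Rpl36al was at 86.9 and 80.3 CPM in P7 PAB and at 73.3, 58.0 and 59.4 CPM in P7 sham (0.40 ± 0.10, edgeR adjusted p = 0.0044). Its counts were 54.1% and 50.7% of those of Rpl36a in P7 PAB and 75.3% to 80.5% in P7 sham. Rps4l was at 60.8 and 59.5 CPM against 42.8, 40.9 and 43.0 CPM (0.51 ± 0.08), and at 9.62% and 10.4% of Rps4x counts against 11.8% to 13.8%. In both ratios the P7 groups did not overlap, and the P3 PAB mean of Rps4l, 13.1% ± 0.7, was above that of P3 sham, 10.6% ± 0.7 (SD, n = 3).

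**Figure D5:**
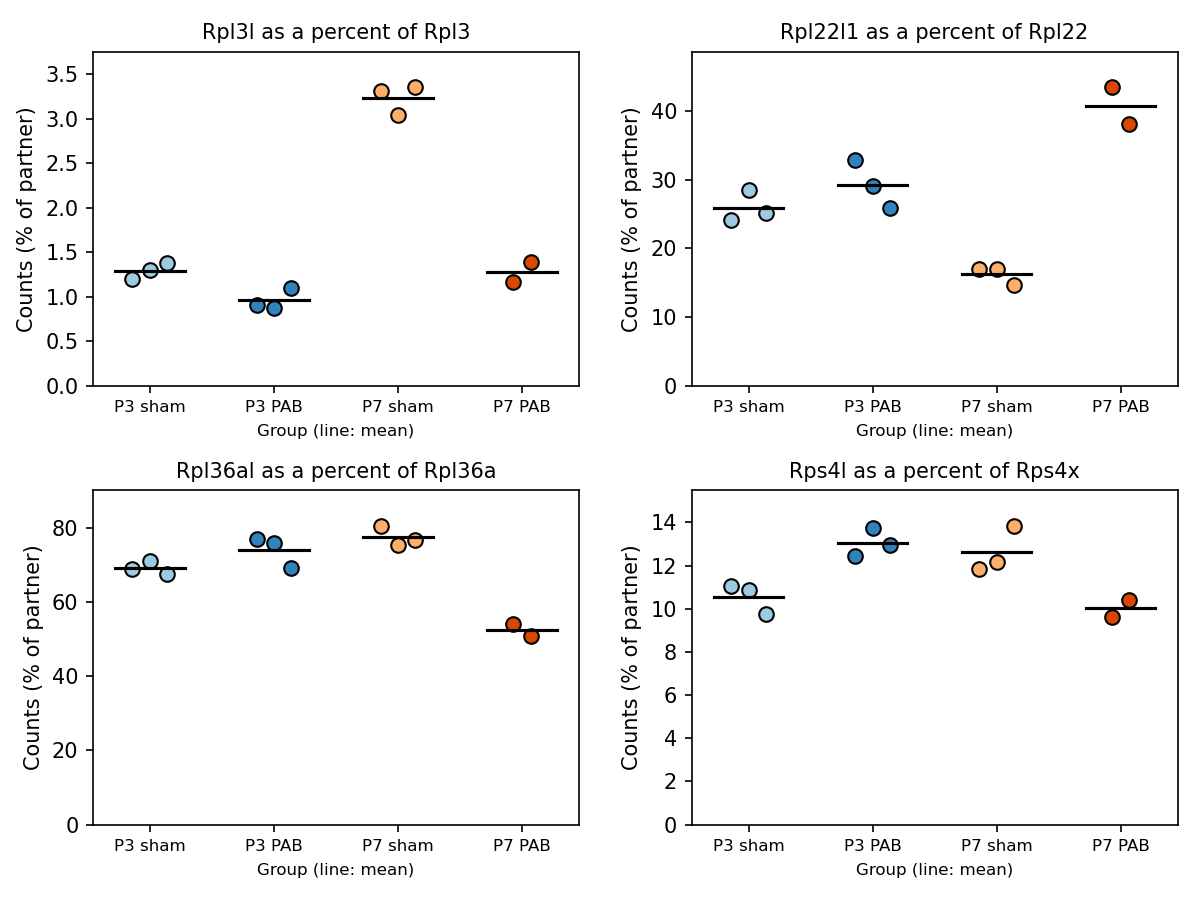
Counts of Rpl3l, Rpl22l1, Rpl36al and Rps4l as a percent of the counts of their partners Rpl3, Rpl22, Rpl36a and Rps4x (vertical axes, from 0) in the 4 groups; each point is a library and each line a group mean. Between P7 sham and P7 PAB the mean went from 3.24% to 1.28% for Rpl3l, from 16.3% to 40.8% for Rpl22l1, from 77.5% to 52.4% for Rpl36al and from 12.6% to 10.0% for Rps4l.

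Rpl7l1, a paralog of Rpl7, was at 53.2 and 47.3 CPM in P7 PAB and at 46.9, 40.9 and 39.5 CPM in P7 sham (0.25 ± 0.09), and Rpl7 had a log2 fold change of 0.62 ± 0.07. Rps19bp1 was between 6.83 and 13.0 CPM in all libraries and was not called in any comparison. The retrogene copies Rpl37rt and Rps27rt were called higher at P7 than at P3 in sham, at 1.24 ± 0.22 and 0.64 ± 0.23 on the log2 scale, and in PAB, at 1.56 ± 0.26 and 0.70 ± 0.25. The calls of Rps27rt were lost in DESeq2 (adjusted p = 0.086 in sham and 0.069 in PAB), in sham also without any single P3 sham library and in PAB without either P7 PAB library. Its PAB value was -0.075 with the exonic length trend removed and -0.084 with the mRNA length trend removed. Their P7 PAB values of -0.19 ± 0.23 and 0.18 ± 0.24 were not called without a length correction. With the exonic and mRNA length trends removed Rpl37rt was at -0.61 and -0.70 at P7 and was called lower. Rps27rt held 89.5% of windows copied elsewhere, Rps27 among the copies, and 1.03% of the counts of Rps27 in P7 PAB, so that its reads cannot be told from those of Rps27 with certainty.

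The pseudogene rows Rps3a2, Rps3a3 and Rps12l1 were at or under 2.31 CPM in every library and not called in the fit without a length correction. With the exonic and mRNA length trends removed Rps12l1 was at -3.75 and -3.92 at P7 and was called lower. It held 24 counts in its highest library. Rpl39l, the testis paralog of Rpl39, was at 0 to 0.345 CPM, with 7 counts in its highest library, and Rpl10l, the testis paralog of Rpl10, had 0 counts in all 11 libraries, which allows up to 0.148 CPM by counting error alone. Neither passed the filter on low counts, so 89 of the 91 genes were tested.

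Ribosomal proteins with names outside the rule were also called higher at P7. Fau, which encodes Rps30 fused to a ubiquitin-like protein, was at 0.82 ± 0.11 on the log2 scale, and Rack1, listed under its older name Gnb2l1, at 1.00 ± 0.08. The genes of the mitochondrial ribosome had a smaller median of 0.45, with 20 of 77 called higher and none lower, where 9.63% of all tested genes were called higher and 8.59% lower. Without the fold change threshold 66 passed as higher and none as lower, where 22.8% and 22.1% of all tested genes did. Of the list, Mrpl33 had the largest value, at 1.13 ± 0.10. The values of this list and of the lists that follow were taken without a length correction.

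Of 102 tested genes for ribosome assembly, 10 were called higher at P7 and 1 lower, where 9.63% of all tested genes were called higher and 8.59% lower. The median change was 0.16. Without the fold change threshold 38 passed as higher and 13 as lower, where 22.8% and 22.1% of all tested genes did. Fcf1 (0.88 ± 0.09) and Emg1 (0.74 ± 0.08), which act on the small subunit precursor, Nip7 (0.85 ± 0.09), and Eif6 (0.81 ± 0.10), which keeps the large subunit from joining early, were among the higher genes. Mdn1, the giant ATPase of large subunit assembly with an mRNA of 17959 nucleotides, was the lower one, at -0.69 ± 0.14 (edgeR adjusted p = 0.00076).

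Of 14 other mRNAs with TOP tracts, 1 was called higher and none lower, where 9.63% and 8.59% of all tested genes were, and the median was 0.25. Without the fold change threshold 8 passed as higher and 3 as lower, where 22.8% and 22.1% of all tested genes did. Eef1b2, an exchange factor of translation elongation, was the gene called higher (0.80 ± 0.07). Pabpc1, the poly(A)-binding protein, was at -0.53 ± 0.07 and Eef2 at -0.14 ± 0.07, and neither was called.

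Of 19 genes of growth signalling and transcription, 1 was called higher and 1 lower, where 9.63% and 8.59% of all tested genes were, with a median of -0.21. Without the fold change threshold 5 passed as higher and 12 as lower, where 22.8% and 22.1% of all tested genes did. Eif4ebp1, the translation repressor that mTOR phosphorylates, was at 0.84 ± 0.09 (edgeR adjusted p = 5.7e-06) and Mycn at -0.63 ± 0.13 (adjusted p = 0.0011). Mtor (-0.21 ± 0.07), Larp1 (-0.40 ± 0.09), Gabpa (-0.55 ± 0.08) and Yy1 (-0.52 ± 0.11) were not called.

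Marker sums of several cell types also differed at P7. Endothelial markers summed to 1119 and 1230 CPM in PAB and to between 1473 and 1511 CPM in sham, fibroblast markers to 4573 and 5449 CPM against 5999 to 6067 CPM, and erythroid markers to 3432 and 3934 CPM against 2283 to 3084 CPM. The 4 atrial markers summed to 136 and 158 CPM in PAB and to between 53.7 and 98.5 CPM in sham, with 1 called higher. The 4 brown fat markers summed to between 37.6 and 41.5 CPM against at most 24.7 CPM, with 1 called higher and the other 3 at no more than 3 counts in every library. The sums of the 5 smooth muscle markers overlapped, at 1315 to 1488 CPM against 1298 to 1481 CPM, and 2 of them were called higher. Of the 7 endothelial markers none was called, of the 8 fibroblast markers 2 were called lower, and of the 8 erythroid markers 1 was called lower, where 9.63% of all tested genes were called higher and 8.59% lower. The 5 lung markers summed to 1.79 and 3.20 CPM in PAB and to between 1.34 and 1.63 CPM in sham, and the 1 that was tested was called higher. Calls were 2 higher and 2 lower of the 10 ventricular cardiomyocyte markers, 1 lower of the 8 macrophage markers and 1 higher of the 6 skeletal muscle markers, and none of the 7 markers of T cells and thymus, of which 1 was tested. Their part in the ribosomal protein changes was not tested.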

How the data were processed

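RNA from mouse hearts was sequenced in paired ends by a commercial service, and the reads were, per the labels and the study's methods, aligned by the authors with STAR 2.5.2b to GRCm38 (mm10) with GENCODE annotation, and deposited as raw counts per gene. The counting tool and its use of strand are not given in the sources used here. The 91 genes, the lists and the tests were chosen with earlier results of these data known.

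Counts of all 4 groups were fitted together with edgeR 4.0.16 (TMM, filterByExpr, quasi-likelihood test, R 4.3.3), and p-values were adjusted over 15808 genes. Calls needed a 1.5-fold change together with an adjusted p up to 0.05, and for the interaction the adjusted p alone. On simulated counts, 77% of 200 genes changed by 2-fold were called for each PAB comparison. Nothing states that samples of a group came from separate litters, so p-values measure the spread between these samples. Intervals from counts cover counting error only. DESeq2 1.42.0, other scalings and filters, a replicate block, the Xist and Y class, left-out libraries and length trends (lowess, span 0.3) were alternatives. GENCODE M21 gave lengths (the shortest principal coding transcript) and RefSeq promoters. Named genes were all paralogs with partners, Rpsa, Rps6, the stalk, X-linked genes, the 3 largest and 3 smallest changes per comparison and the 3 highest and lowest levels per kb of exonic length. Levels per kb of mRNA and classes of mRNA length were added after seeing the data. Genes with no copied windows, members picked by role, Rps2 and Rps20, the 3 ETS windows, and list genes that were not called or beyond 3 a direction were named after their values were seen. Same-numbered libraries correlated over 0.1 in their deviations in only 1 of 3 P3 pairs (0.083, 0.079 and 0.144), so numbers were not taken as pairs. Some genes of the group are not reported here by name.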

Additional observations from a re-analysis of the deposited data

Results flagged for a closer look

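The PAB effect differed between P7 and P3 by edgeR's interaction test in 27 of the genes chosen by the naming rule. The difference, P7 minus P3 on the log2 scale, was 1.81 for Rpl22l1, 1.53 for Rpl39, 1.18 for Rpl38, 1.14 for Rps21, 1.11 for Rps14, 1.09 for Rpl41 and 1.06 for Rps27. It was 0.95 for Rps19, 0.93 for Rps29, 0.89 for Rplp1, 0.87 for Rpl10, 0.87 for Rps15a, 0.86 for Rpl36a, 0.85 for Rps27l, 0.80 for Rps4x, 0.73 for Rpl37, 0.68 for Rps12 and 0.66 for Rpl22. It was 0.64 for Rpsa, 0.63 for Rplp0, 0.58 for Rps3a1, 0.53 for Rpl7, 0.53 for Rps9, 0.50 for Rpl3, 0.39 for Rpl27a, 0.38 for Rpl23 and 0.38 for Rps24. The P7 groups have no library of the same Xist and Ddx3y class, and with that class as a term 60 members were more positive at P7 and none less, where 7.84% and 6.65% of all tested genes were. The P7 PAB libraries differ from all others in their trend with mRNA length, and with this trend removed 35 were more positive and 3 less, where 7.78% and 7.32% were.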

How the results depend on the processing

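With 1 library left out and at least 2 kept in each group, 52 to 65 canonical genes were called higher at P7. The lowest was without P7 sham replicate 3 and the highest without P7 sham replicate 1, where 8.3% and 11.3% of all tested genes were. Members called lower numbered 1 to 2, and over all 11 fits the canonical median was 0.70 to 0.89. In sham between ages 2 to 3 members were called higher, where 4.74% to 5.68% of all tested genes were, and 2 to 6 lower, where 4.86% to 6.3% were. In PAB between ages 33 to 36 canonical genes were called higher, where 8.56% to 9.58% were, and none lower. For the interaction 61 to 75 members were called higher, where 9.97% to 15.8% were, and none lower. At P3 none was called. Over all 11 fits the canonical medians were -0.16 to -0.04 in sham, 0.48 to 0.62 in PAB, 0.59 to 0.77 for the interaction and 0.06 to 0.16 at P3. In fits with 1 P7 PAB library its spread was taken from the other groups, so their calls are left out of these counts. Scaling by the total count gave 23 lower and a median of -0.40 in sham and 12 higher and 0.29 in PAB between ages. Without a fold change threshold there were 10 higher and 26 lower in sham and 73 higher in PAB between ages, where 16.2%, 16.8% and 22.3% of all tested genes were. The stricter filter left 1 higher in sham, the Xist and Y class 2 lower, and no filter, with or without bias-adjusted residuals, 2 lower at P7.

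Removing the trend with exonic length gave, at P7, 33 higher, 3 lower and a median of 0.53, and in PAB between ages 16 higher and 0.32. For the interaction it gave 54 higher, 2 lower and 0.46, where 10.4% and 8.77% of all tested genes were. With the mRNA length trend removed these were 13, 4 and 0.29 at P7, 3 higher, 1 lower and 0.034 in PAB between ages, and 35 higher, 3 lower and 0.24 for the interaction, and in sham 7 lower and -0.23. Under the exonic trend Rps27rt turned to -0.075 in PAB between ages (-0.10 with the replicate block added). Under the mRNA trend Rplp2 turned to -0.63 at P7, Rps27rt to -0.084, Rpl22 to -0.0027, Rpl36a to -0.089 and Rps12 to -0.058 in PAB between ages, and Rps6 to -0.31 for the interaction. The replicate block alone gave 56 higher and 1 lower at P7, 33 in PAB between ages and 70 for the interaction, where 8.96%, 7.67%, 8.89% and 12.6% of all tested genes were called, and between P3 sham and P3 PAB each library correlated best with its own number. With the block and the exonic trend together there were 31 higher and 0.51 at P7 and 15 and 0.30 in PAB between ages, where 5.68% and 6.03% were. For the interaction there were 53 higher, 2 lower and 0.43, where 9.81% and 8.22% were. As a ratio of shares of raw counts, P7 sham over P3 sham was 0.734 and P7 PAB over P3 PAB 1.18. The cause of these shifts was not tested beyond what each setting leaves out. RLE size factors, DESeq2, leaving out mitochondrially encoded genes and fits of 2 groups changed no count of calls by over 1.5 times. The P7 comparison is limited by its 2 PAB libraries.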
